A study of Homo sapiens with 16 samples.

Results

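The 9 genes described here encode the transporters that move drugs and bile acids across the hepatocyte membrane: the ABC exporters ABCB1, ABCB4, ABCB11, ABCC1, ABCC2, ABCC3 and ABCG2, and the uptake carriers SLCO1B3 and SLC10A1. They were chosen by name, by matching the gene ID to its symbol, and all 9 were found among the 26258 genes of the deposited expression table, of which 26111 had a symbol. Levels were measured by sequencing of poly(A) RNA in Huh7 and Hep3B, which are human cell lines from hepatocellular carcinoma (HCC). Each line gave 4 groups of 2 libraries: parental cells, cells labeled DMSO, IR cells made resistant by rising concentrations of Sorafenib, and CR cells made resistant by a constantly high concentration. Sorafenib is an oral inhibitor of several kinases that is used against advanced HCC. IR and CR libraries carry the label of 7 µM Sorafenib, and parental and DMSO libraries are both labeled as untreated, so drug exposure and acquired resistance cannot be told apart in any comparison with parental cells. How long the DMSO cells were cultured is not given in the sources used here. The study's methods speak of biological triplicates, and the labels do not say whether the 2 libraries of a group come from separate cultures, so the p-values below measure only the spread between these libraries, which may be technical. IR and CR cells of a line are compared with the same 2 parental libraries.

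In the liver, bile acids are taken up from portal blood at the basolateral membrane, mainly by the sodium-dependent carrier NTCP (SLC10A1) and by organic anion transporting polypeptides such as OATP1B3 (SLCO1B3). At the apical, canalicular membrane, the bile salt export pump BSEP (ABCB11), the phospholipid floppase MDR3 (ABCB4) and the conjugate exporter MRP2 (ABCC2) form bile, while P-glycoprotein (ABCB1) and BCRP (ABCG2) export drugs. MRP3 (ABCC3) and MRP1 (ABCC1) sit in the basolateral membrane, where MRP3 returns glucuronides and bile acids to blood. The levels in every library are drawn in the plot of log2(CPM + 1) by group, where CPM is the read count of a gene scaled to the same total in every library.

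**Figure D1:**
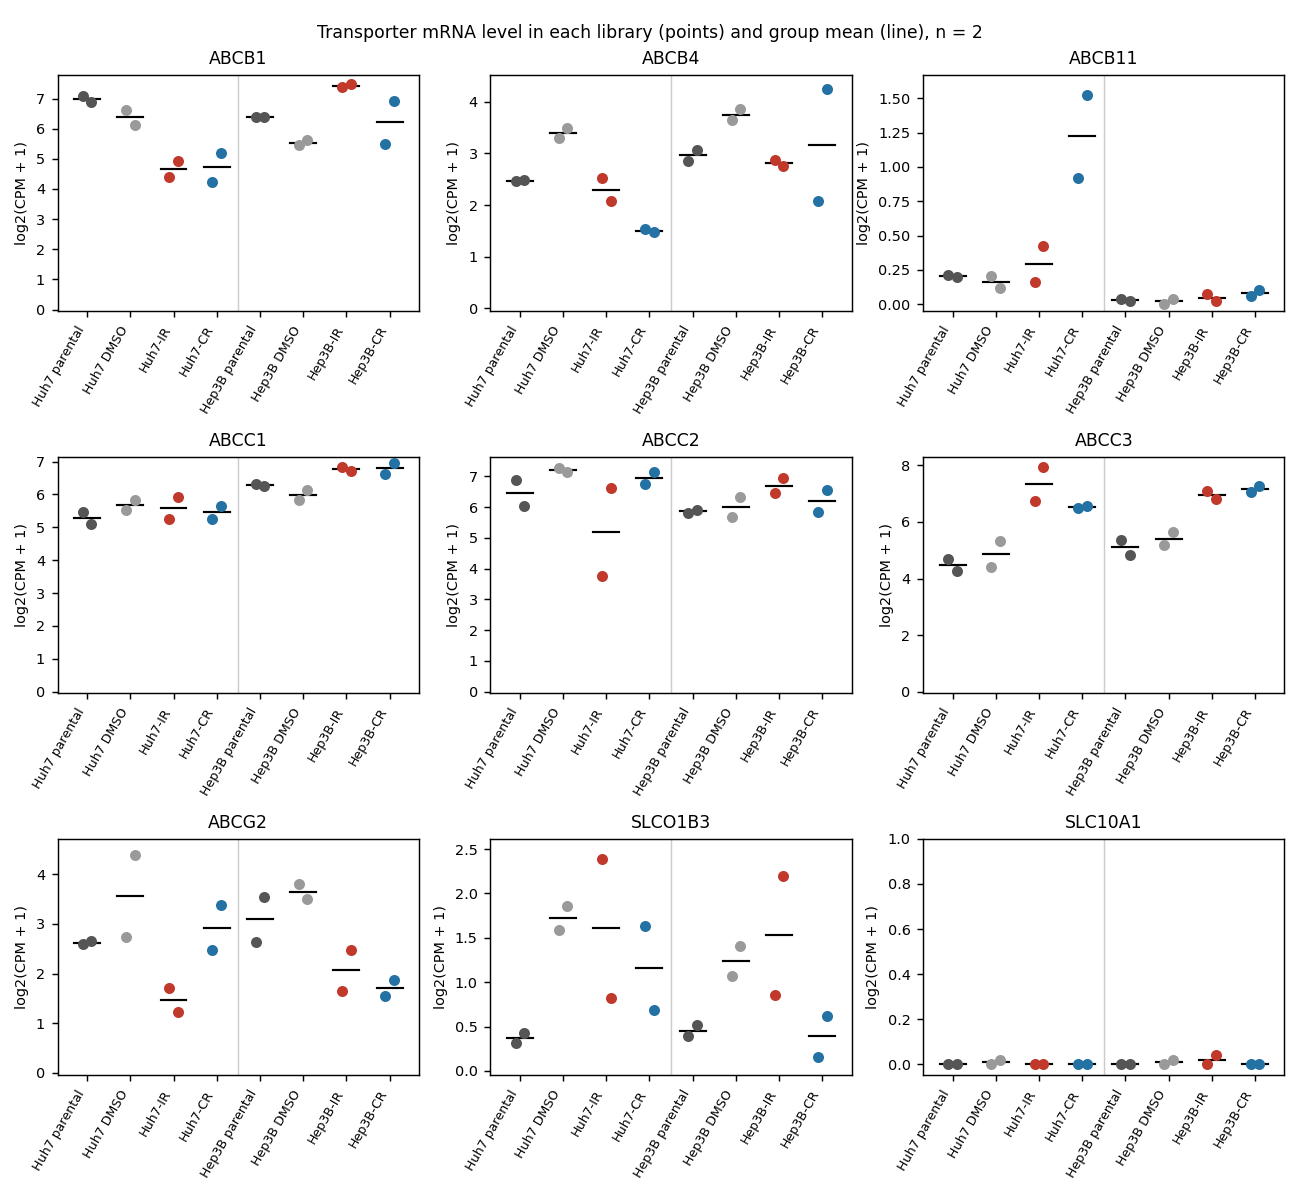
Level of each of the 9 transporters in 16 libraries, as log2(CPM + 1) on the vertical axis, by group on the horizontal axis (points, libraries, and lines, means of n = 2). The scale of each panel differs. ABCC3 lay higher in all IR and CR libraries than in all parental and DMSO libraries of both lines, ABCB1 lay below the untreated libraries in IR and CR cells of Huh7, ABCB11 exceeded 1 CPM in 1 library of Huh7-CR, and SLC10A1 stayed near 0.

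The letters upstream of the transcription start are shown for 4 members, ABCB1 because its change differed between the lines and SLCO1B3, SLC10A1 and ABCB11 because they were the least abundant members. Promoter windows from RefSeq (GRCh38.p14, a later build than the hg19 of the authors' mapping) were matched for 6 members with 11 windows. No window was matched for ABCB4, ABCC1 and ABCC3, so their promoters were not examined. The 250 bases before each start were searched on both strands for 5 motifs: part of the HNF1 recognition sequence, GTTAAT, the CCAAT box, the GC box with the letters GGGCGG, the TATA box with the letters TATAAA, and AGGTCA, which nuclear receptors recognize. The motifs do not overlap each other in the 4 windows. Shown are the 150 bases before the start, 5′ to 3′ on the strand of the gene, with the motif letters in capitals. The positions are chr7:87600885-87601034, minus strand, for the downstream start of ABCB1, chr12:20810555-20810704, plus strand, for SLCO1B3, chr14:69797242-69797391, minus strand, for SLC10A1, and chr2:169031325-169031474, minus strand, for ABCB11.
ABCB1: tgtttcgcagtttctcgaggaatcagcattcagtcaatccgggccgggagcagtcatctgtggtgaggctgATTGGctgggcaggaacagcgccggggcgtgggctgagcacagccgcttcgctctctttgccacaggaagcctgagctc
SLCO1B3: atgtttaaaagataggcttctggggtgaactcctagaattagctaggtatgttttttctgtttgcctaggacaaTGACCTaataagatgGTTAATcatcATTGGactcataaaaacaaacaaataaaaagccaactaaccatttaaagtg
SLC10A1: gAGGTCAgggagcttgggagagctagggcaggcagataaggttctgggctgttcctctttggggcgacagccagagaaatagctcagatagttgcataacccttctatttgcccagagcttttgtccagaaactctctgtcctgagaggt
ABCB11: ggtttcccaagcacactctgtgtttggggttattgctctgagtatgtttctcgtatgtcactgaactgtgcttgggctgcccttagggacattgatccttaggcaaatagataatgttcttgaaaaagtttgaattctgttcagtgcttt
The window of the downstream ABCB1 start had a CCAAT in reverse orientation 79 bases before the start, printed as ATTGG, and another in forward orientation 238 bases before it, outside the stretch shown. The window of the upstream ABCB1 start, not shown, had none of the 5 motifs, and which start these cells use was not tested. In the SLCO1B3 window, which had a GC content of 28.4% against a median of 58% over all 35116 windows, a reversed AGGTCA lay 76 bases, GTTAAT 61 bases and a reversed CCAAT 51 bases before the start. SLC10A1 had AGGTCA 149 bases before the start, and ABCB11 had none of the 5 motifs in its window. Among all 35116 windows, 32.01% held CCAAT, 12.08% held AGGTCA and 6.231% held GTTAAT. A match is a description of letters and no evidence of binding.

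Library depth ranged from 46613302 reads (Huh7-IR replicate 2) to 76860251 reads (Hep3B DMSO replicate 1), and 3 reads corresponded to 0.0390 to 0.0644 CPM. The SD over genes of the difference between replicates was 0.57 on the log2 scale in both Huh7 DMSO and Huh7-IR cells, and elsewhere it was 0.24 to 0.31, so Huh7-IR and Huh7 DMSO values are the less precise ones. A gene was called when its BH-adjusted p from limma was under 0.05 and its absolute log2 fold change was at least 0.58, in a fit of all 15019 genes that reached 1 CPM in 2 or more libraries. The SE of a gene rests on a spread pooled over all 8 groups, so it does not show the lower precision of Huh7-IR and Huh7 DMSO. Over these genes, 4666 were called higher and 2670 lower in Huh7-IR than in parental cells, and 3141 and 2040 in CR cells of that line. For Hep3B the numbers were 2353 and 1710 in IR and 2997 and 1843 in CR cells. The share of higher among called genes depended on the scaling: it was 63.6%, 60.6%, 57.9% and 61.9% in that order with CPM, and 49.8%, 49.3%, 47.7% and 49.2% after quantile normalization. The median change of all genes with CPM was 0.19 for IR and 0.07 for CR cells of Huh7, and 0.06 for IR and 0.11 for CR cells of Hep3B, against 0.00, -0.03, -0.01 and -0.00 after quantile normalization.

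Of the 9 members, 7 passed the filter on low values, and ABCB11 and SLC10A1 did not. In Huh7-IR against parental cells, 3 of the 7 tested members were called, in a comparison in which 48.8% of all genes tested were called. In Huh7-CR, 2 of 7 were called (34.5% of all genes), in Hep3B-IR 1 of 7 (27.1%) and in Hep3B-CR 2 of 7 (32.2%). These shares are near or below those of all genes, so the counts say nothing particular about transporters. DMSO libraries differed from parental libraries in 0 of 7 members in Huh7 (4.83% of all genes) and in 0 of 7 in Hep3B (1.58%) by limma. At an unadjusted p under 0.05 with the same fold limit, 1 member passed in each line, SLCO1B3 in Huh7 and ABCB1 in Hep3B, edgeR called 0 in both lines, and DESeq2 called 1 in Huh7 and 0 in Hep3B. Between IR and CR cells, 0 of 7 members were called by limma in Huh7 (13.7% of all genes) and 0 of 7 in Hep3B (11.7%), and 2 members in each line passed at the unadjusted p. For this comparison edgeR called 1 member in Huh7 and 0 in Hep3B, and DESeq2 called 1 and 2. A bulk measurement cannot tell fewer cells that express a gene from less RNA of it per cell.

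**Figure D2:**
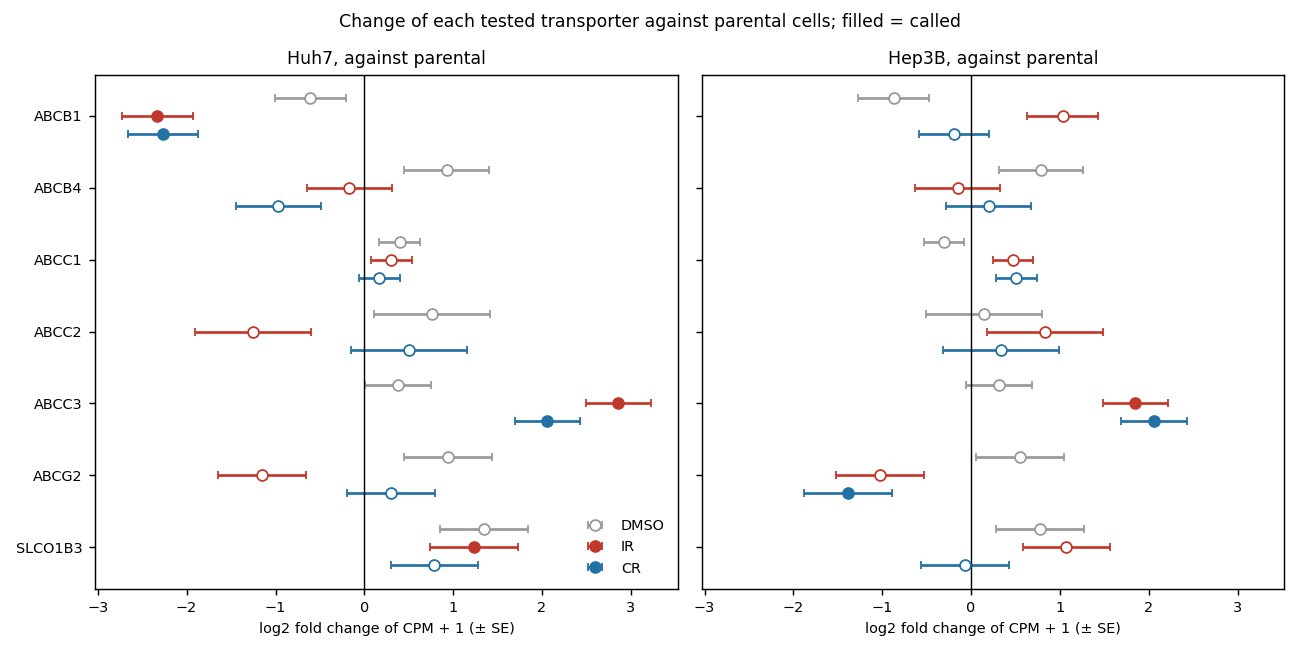
Change of the 7 tested transporters against parental cells of the same line, as log2 fold change of CPM + 1 (horizontal axis, points with SE, n = 2 libraries a group) for DMSO, IR and CR cells of Huh7 (left) and Hep3B (right). Filled points were called. ABCC3 was called in all 4 resistant groups (1.85 to 2.86), ABCB1 in Huh7-IR and Huh7-CR (-2.33 and -2.27), SLCO1B3 in Huh7-IR and ABCG2 in Hep3B-CR.

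ABCC3, the basolateral exporter of glucuronides, rose in all 4 resistant groups, by 3.61-fold to 7.26-fold. The gene (ID 8714) lies at chr17:48712138-48769614 on the plus strand of GRCh37 and its canonical transcript has 31 exons. Its level was 24.9 and 18.2 CPM in Huh7 parental and 20.1 and 38.9 CPM in Huh7 DMSO libraries. It reached 106 and 243 CPM in Huh7-IR and 89.7 and 94.4 CPM in Huh7-CR libraries. All 4 resistant libraries of Huh7 thus lay above all 4 untreated ones. Hep3B showed the same separation, with 40.5 and 27.2 CPM in parental, 35.4 and 48.8 CPM in DMSO, 135 and 111 CPM in IR and 131 and 152 CPM in CR libraries. The log2 fold change against parental cells was 2.86 ± 0.37 (SE, adjusted p = 4.5e-05) in Huh7-IR and 2.06 ± 0.37 (adjusted p = 0.000878) in Huh7-CR. It was 1.85 ± 0.37 (adjusted p = 0.00241) in Hep3B-IR and 2.06 ± 0.37 (adjusted p = 0.00105) in Hep3B-CR by limma. Relative to the median of all genes these changes were 2.67, 2.00, 1.79 and 1.95. Each of the 4 calls held under all 19 alternatives, among them the fits without either library of the groups compared. The looser call rules among the alternatives, the unadjusted p and no fold limit, cannot remove a call, here and below. In Huh7-IR the size of the change rested on the replicates: it was 2.26 without replicate 2 and 3.46 without replicate 1. Averaged over IR and CR cells, the change was 0.51 higher in Huh7 than in Hep3B, which did not pass the test (SE 0.45, adjusted p = 0.429). DMSO libraries were 0.38 (Huh7) and 0.31 (Hep3B) above parental ones and were not called (adjusted p = 0.553 and 0.724). By mean level the groups ran from Huh7-IR (175 ± 97.1 CPM, SD, n = 2) over Hep3B-CR (142 ± 14.6), Hep3B-IR (123 ± 16.8) and Huh7-CR (92.0 ± 3.34) to the 4 untreated groups (21.5 to 42.1 CPM). Libraries of Huh7-IR and Hep3B-CR overlapped, as did those of Hep3B-CR and Hep3B-IR and those of neighboring untreated groups. Outside the members, the genes with the most similar course over the 16 libraries were LINC00205 (Pearson's r = 0.98 of log2 values) and SRC (r = 0.97), a description over libraries that share the same lines and groups.

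ABCB1, which encodes P-glycoprotein, fell in both resistant groups of Huh7 and was called in neither of those of Hep3B. The gene (ID 5243) lies at chr7:87132333-87342639 on the minus strand of GRCh37, with 28 exons in the canonical transcript. In Huh7, its level was 135 and 117 CPM in parental and 97.3 and 69.3 CPM in DMSO libraries. It was 20.0 and 29.1 CPM in IR and 17.9 and 35.8 CPM in CR libraries, below all untreated libraries of the line. In Hep3B, parental libraries had 83.7 and 83.2 CPM and DMSO libraries 42.5 and 48.0 CPM. Hep3B-IR libraries had 167 and 177 CPM, above all other libraries, whereas the Hep3B-CR libraries (43.7 and 121 CPM) lay on either side of the parental ones. The log2 fold change against parental cells was -2.33 ± 0.40 (SE, adjusted p = 0.000355) in Huh7-IR, a 5.04-fold lower level, and -2.27 ± 0.40 (adjusted p = 0.000763) in Huh7-CR, a 4.81-fold lower level, by limma. Relative to the median of all genes it was -2.52 and -2.33. Both calls held under all 19 alternatives, including each library of the groups compared left out. Against DMSO libraries as the reference, the change was -1.72 in Huh7-IR and -1.66 in Huh7-CR. In Hep3B-IR the change was 1.03 ± 0.40 and missed the threshold (adjusted p = 0.0664), while against the DMSO libraries of Hep3B it was 1.91 and was called (adjusted p = 0.00258). The Hep3B-CR change of -0.19 ± 0.40 was not called (adjusted p = 0.749), and it turned from -0.92 to 0.53 with the left-out CR replicate. A test of the difference itself, the mean IR and CR change in Huh7 minus that in Hep3B, gave -2.72 ± 0.49 (adjusted p = 0.00135). ABCB1 was the only tested member called in that test, in which 29.4% of all genes were called. Ordered by mean level, Hep3B-IR (172 ± 6.89 CPM, SD, n = 2) led Huh7 parental (126 ± 13.3). Hep3B parental (83.5 ± 0.363), Huh7 DMSO (83.3 ± 19.8) and Hep3B-CR (82.5 ± 54.9) did not differ beyond their spread, nor did Huh7-CR (26.8 ± 12.7) and Huh7-IR (24.6 ± 6.45) at the low end. RUNDC3B lies on the opposite strand and overlaps the ABCB1 gene over 85776 bases, and their canonical transcripts share 0 exon bases. Its mean level was 1.57 to 5.10 CPM over the 8 groups and it was called in none of the 4 resistant comparisons. The nearest courses over the 16 libraries were those of TC2N (r = 0.92) and GDPGP1 (r = 0.89).

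ABCB4, the phospholipid floppase, is the neighbor of ABCB1 on the minus strand (ID 5244, chr7:87031012-87109751 in GRCh37, 28 exons), with 22581 bases between the annotated ends of both genes. In Huh7-IR, where ABCB1 fell, its change was -0.17 ± 0.48 (adjusted p = 0.786). Huh7 parental libraries had 4.51 and 4.58 CPM, DMSO libraries 8.91 and 10.2 CPM, IR libraries 4.72 and 3.24 CPM and CR libraries 1.89 and 1.78 CPM. The Huh7-CR libraries were the lowest of all 16, and the change of -0.97 ± 0.48 missed the threshold (SE, adjusted p = 0.125), while 5 of 19 alternatives called it, among them DESeq2 (-1.40). In Hep3B, it was measured at 6.27 and 7.36 CPM in parental, 11.5 and 13.5 CPM in DMSO, and 6.29 and 5.78 CPM in IR libraries. The Hep3B-CR libraries disagreed, with 3.22 and 18.0 CPM, the latter the highest value of all. Their change of 0.20 ± 0.48 was not called (adjusted p = 0.786), and became -0.89 without replicate 2 and 1.29 without replicate 1, each of which was called. No direction can therefore be given for ABCB4 in Hep3B-CR cells. The DMSO libraries were higher than the parental ones without overlap in both lines, by 0.93 in Huh7 and 0.79 in Hep3B, and neither was called (adjusted p = 0.249 and 0.457). The ratio of ABCB1 to ABCB4 CPM within a library was 30.0 and 25.5 in Huh7 parental, 10.9 and 6.76 in Huh7 DMSO, 4.24 and 8.99 in Huh7-IR, and 9.48 and 20.1 in Huh7-CR libraries, so the DMSO libraries overlapped both resistant groups. In Hep3B it was 13.3 and 11.3 in parental and 26.6 and 30.6 in IR libraries, without overlap, and 13.6 and 6.73 in CR libraries. The ratio was lowest in Hep3B DMSO libraries, at 3.69 and 3.56. IQSEC1 (r = 0.90) and RTN4RL2 (r = 0.86) had the most similar courses to ABCB4.

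ABCG2, the drug and urate exporter BCRP, had low values in 3 of the 4 resistant groups. The gene (ID 9429) lies at chr4:89011302-89152780 on the minus strand of GRCh37 and has 16 exons in the canonical transcript. Huh7 parental libraries had 5.05 and 5.26 CPM and Huh7 DMSO libraries 5.64 and 20.0 CPM. Huh7-IR libraries had 2.29 and 1.33 CPM, below all untreated libraries, and Huh7-CR libraries had 4.56 and 9.38 CPM, on either side of the parental values. Hep3B libraries gave 5.24 and 10.7 CPM in parental, 12.9 and 10.3 CPM in DMSO, 2.15 and 4.59 CPM in IR and 1.93 and 2.65 CPM in CR cells. All 4 resistant Hep3B libraries lay below all untreated ones. ABCG2 fell in Hep3B-CR by 1.38 on the log2 scale (SE 0.50, adjusted p = 0.0438), close to the threshold, and the call was lost under 6 of 19 alternatives, including the fits without Hep3B parental replicate 2 (-0.93), CR replicate 1 (-1.23) or CR replicate 2 (-1.54). In Huh7-IR the change was -1.15 ± 0.50 (adjusted p = 0.0645) and 8 of 19 alternatives called it, among them edgeR and DESeq2. In Hep3B-IR it was -1.02 ± 0.50 (adjusted p = 0.141), and -1.57 and called with DMSO libraries as the reference. The Huh7-CR value of 0.30 ± 0.50 had the other sign (adjusted p = 0.669), and the difference between Huh7-IR and Huh7-CR missed the threshold (-1.46 ± 0.50, adjusted p = 0.0641). NSDHL, which encodes an enzyme of cholesterol synthesis, was among the genes most like ABCG2 (r = 0.88).

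ABCC1, the exporter of glutathione conjugates MRP1, was the member among the 7 tested that distinguished the lines before any treatment. The gene (ID 4363) lies at chr16:16042995-16237114 on the plus strand of GRCh37, with 31 exons in the canonical transcript. Huh7 libraries ranged from 33.2 to 59.9 CPM: 43.5 and 33.2 CPM in parental, 45.1 and 56.4 CPM in DMSO, 37.2 and 59.9 CPM in IR, and 37.4 and 49.0 CPM in CR cells. All 4 Huh7 groups overlapped their neighbors in level. Hep3B libraries had 78.4 and 75.9 CPM in parental, 56.1 and 69.1 CPM in DMSO, 112 and 103 CPM in IR, and 98.1 and 124 CPM in CR cells. Huh7 parental cells were lower than Hep3B parental cells by 1.00 on the log2 scale (SE 0.23, adjusted p = 0.00304), a call that held under all 17 alternatives. ABCC1 was the 1 member of 7 called between the parental lines, where 42.6% of all genes were called. The resistant Hep3B libraries lay above all untreated ones, by 0.47 ± 0.23 in IR (adjusted p = 0.140) and 0.51 ± 0.23 in CR cells (adjusted p = 0.0988), both under the fold limit and not called. Against DMSO libraries both passed, with 0.78 and 0.81. The Huh7 values were 0.31 ± 0.23 (adjusted p = 0.272) and 0.17 ± 0.23 (adjusted p = 0.599). RIPK4 and CCHCR1 followed ABCC1 most closely (r = 0.95 each).

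ABCC2, the canalicular conjugate exporter MRP2, was called in none of the comparisons. Its SE, pooled over all 8 groups, was 0.65 on the log2(CPM + 1) scale in every comparison of 1 group with another. Its gene (ID 1244) lies at chr10:101542397-101612351 on the plus strand of GRCh37 and has 32 exons. Its level in Huh7 was 116 and 64.1 CPM in parental, 155 and 140 CPM in DMSO and 107 and 140 CPM in CR libraries. The Huh7-IR libraries differed widely, with 12.6 CPM in replicate 1, the lowest of all 16 libraries, and 97.6 CPM in replicate 2. The Huh7-IR change of -1.25 ± 0.65 was not called (adjusted p = 0.120), and it was -2.68 and called without replicate 2, and 0.18 without replicate 1. Against DMSO libraries it was -2.02 and called. Hep3B libraries had 55.3 and 58.6 CPM in parental, 50.6 and 78.7 CPM in DMSO, 86.1 and 122 CPM in IR and 56.1 and 92.4 CPM in CR cells. Both Hep3B-IR libraries lay above the parental and DMSO ones, and the change against parental cells, 0.84 ± 0.65, was not called (adjusted p = 0.368). That of Hep3B-CR was 0.33 ± 0.65 (adjusted p = 0.733). By mean level Huh7 DMSO (148 ± 10.4 CPM, SD, n = 2) was highest and Huh7-IR (55.1 ± 60.1) lowest, and every pair of neighboring groups overlapped in its libraries. FRMD4B (r = 0.80) and GDA (r = 0.79) were the most similar genes.

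SLCO1B3, the uptake carrier OATP1B3, was rare, with 9 to 256 reads a library, and its highest values were in 1 IR library of each line. The gene (ID 28234) lies at chr12:20963636-21069845 on the plus strand of GRCh37 and its canonical transcript has 16 exons. Parental libraries had 0.247 and 0.348 CPM in Huh7 and 0.310 and 0.436 CPM in Hep3B. DMSO libraries were higher, with 2.01 and 2.61 CPM in Huh7 and 1.09 and 1.64 CPM in Hep3B, without overlap with the parental ones. IR libraries had 4.24 and 0.772 CPM in Huh7 and 0.816 and 3.60 CPM in Hep3B, and CR libraries had 2.10 and 0.615 CPM in Huh7 and 0.119 and 0.533 CPM in Hep3B. Against parental cells the Huh7-IR change was 1.23 ± 0.49 (SE, adjusted p = 0.0482) and was called, just past the threshold. The call was lost under 9 of 19 alternatives, among them the fits without Huh7-IR replicate 1 (0.45), parental replicate 1 (1.18) or parental replicate 2 (1.29), and the value was -0.11 against the DMSO libraries. DMSO against parental cells gave 1.35 ± 0.49 in Huh7 (adjusted p = 0.123) and 0.78 ± 0.49 in Hep3B (adjusted p = 0.473). A change particular to resistant cells is thus not shown for SLCO1B3. The other resistant groups, with 0.79 for Huh7-CR and with 1.07 (IR) and -0.07 (CR) for Hep3B, were not called (adjusted p = 0.225, 0.118 and 0.942). DACH1 (r = 0.86) and FBXO4 (r = 0.78) had the most similar courses.

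ABCB11, the bile salt export pump, and SLC10A1, the sodium-dependent bile acid carrier NTCP, were under the filter. ABCB11 (ID 8647, chr2:169772008-169887834, minus strand, GRCh37, 28 exons) reached 1.87 CPM at most. It was read 11 and 11 times in Huh7 parental, 11 and 6 times in Huh7 DMSO, 7 and 16 times in Huh7-IR and 58 and 143 times in Huh7-CR libraries. In Hep3B it had 0 to 4 reads a library. Only the Huh7-CR libraries, at 0.896 and 1.87 CPM, stood clear of the parental ones (0.160 and 0.147 CPM). A limma fit without the filter gave 1.02 ± 0.15 on the log2(CPM + 1) scale (adjusted p = 0.000848), and edgeR on the recovered reads of all genes with a read gave a log2 fold change of 3.06 (adjusted p = 0.00270, an alternative chosen after the data had been seen). Huh7-CR also exceeded Huh7-IR (0.116 and 0.343 CPM), by 0.93 in the limma fit without filter (adjusted p = 0.00662). SLC10A1 (ID 6554, chr14:70242133-70263958, minus strand, GRCh37, 5 exons) had 4 reads in all 16 libraries: 1 in Huh7 DMSO replicate 2, 1 in Hep3B DMSO replicate 2 and 2 in Hep3B-IR replicate 2. The other 13 libraries had 0 reads, which allows at most 0.0644 CPM in the shallowest one, a limit that covers counting error only. No fold is given for SLC10A1, since every group was at or under 3 reads.

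Levels of different members were compared as CPM per kb of canonical transcript, and shares below are of the summed CPM per kb of the 9 genes in a library. In parental Huh7 cells ABCB1 made up 43.8% and 50.7% of the sum, ABCC2 33.6% and 24.98%, and ABCC3 7.35% and 7.23%. ABCC3 reached 55.7% and 56.4% in Huh7-IR and 34.4% and 28.4% in Huh7-CR libraries, while ABCB1 took 11.5% and 7.39% and then 7.50% and 11.8%. In Huh7-IR cells the leading transporter transcript was therefore ABCC3. ABCC2 led in Huh7-CR (40.4% and 41.5%) and also in untreated Huh7 DMSO libraries (44.5% and 39.6%, with ABCB1 at 31.2% and 21.8%). In Hep3B parental cells ABCB1 (33.8% and 34.1%), ABCC1 (25.3% and 24.9%) and ABCC2 (20.0% and 21.5%) led. The share of ABCC3 in Hep3B was 15.0% and 10.2% in parental and 16.4% and 17.8% in DMSO libraries. It was 26.3% and 20.8% in IR and 40.2% and 29.7% in CR libraries. ABCC3 was the leading member in Hep3B-CR, and ABCB1 in Hep3B-IR, with 35.6% and 36.1%. In untreated Hep3B DMSO libraries ABCB1 did not lead, with 21.6% and 19.2% against 23.0% and 28.2% for ABCC2. ABCB11, SLCO1B3 and SLC10A1 together stayed minor, SLCO1B3 reaching 4.21% in Huh7-IR replicate 1 and ABCB11 0.463% in Huh7-CR replicate 2. The summed CPM per kb was 44.2 to 61.0 in the untreated Huh7 libraries and 33.4 and 75.7 in Huh7-IR. In Hep3B it was 37.83 to 48.1 in untreated, 90.1 and 93.98 in IR, and 57.5 and 90.0 in CR libraries, so all resistant Hep3B libraries exceeded the untreated ones. Shares sum to a whole, so a gain of ABCC3 lowers the others' shares.

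**Figure D3:**
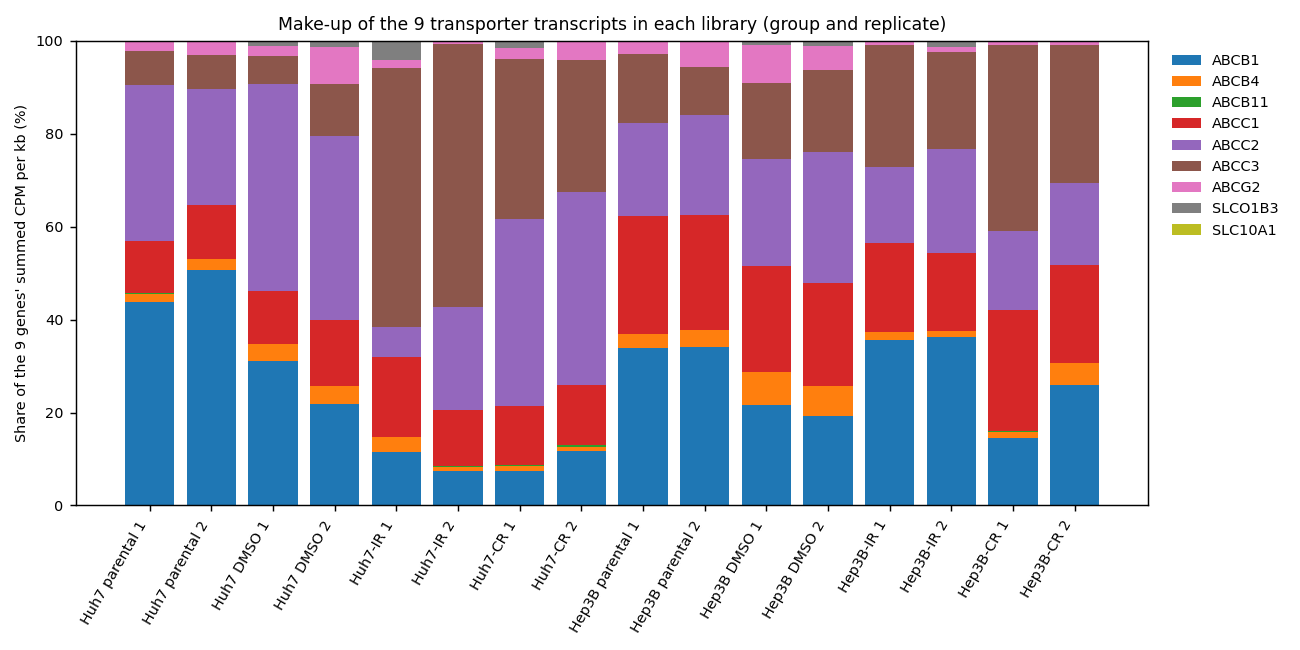
Share of each of the 9 transporters in their summed CPM per kb (vertical axis, %) in each of the 16 libraries (horizontal axis, group and replicate). ABCC3 holds 55.7% and 56.4% in the Huh7-IR libraries against 7.35% and 7.23% in Huh7 parental ones, and ABCB1 falls to 11.5% and 7.39% from 43.8% and 50.7%.

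The ratio of the basolateral exporter ABCC3 to the canalicular exporter ABCC2, in CPM within a library, was 0.215 and 0.284 in Huh7 parental and 0.130 and 0.278 in Huh7 DMSO libraries. It was 8.38 and 2.49 in Huh7-IR and 0.834 and 0.673 in Huh7-CR libraries, all above the untreated ones. In Hep3B the ratio was 0.732 and 0.464 in parental, 0.6996 and 0.620 in DMSO, 1.57 and 0.911 in IR and 2.34 and 1.65 in CR libraries, again without overlap between resistant and untreated cells. These ratios were not tested. Across the 16 libraries, ABCC3 and ABCG2 had the most negative correlation of any 2 tested members (r = -0.65), and ABCC3 and ABCC1 the most positive one (r = 0.47), over libraries that share the same 2 lines and 8 groups.

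Other transporters of hepatocytes changed in both directions. Of 24 listed genes, 15 were tested. In Huh7-IR 5 rose and 6 fell, with a median change of -0.05 against 0.19 over all genes tested, of which 48.8% were called. In Huh7-CR 4 rose and 5 fell (median -0.33 against 0.07, 34.5% of all genes called). In Hep3B-IR 3 rose and 2 fell (0.07 against 0.06, 27.1%) and in Hep3B-CR 3 rose and 4 fell (-0.12 against 0.11, 32.2%). SLC22A9, an organic anion transporter of the liver, fell in all 4 comparisons, with log2 changes of -5.87 (IR) and -5.43 (CR) for Huh7 and -2.57 and -3.57 for Hep3B. Its mean level went from 66.0 CPM in Huh7 parental to 0.143 CPM in Huh7-IR cells. ATP8B1, the aminophospholipid flippase of the canalicular membrane, rose in Huh7-IR (1.23), Huh7-CR (1.63) and Hep3B-IR (1.63) and had 0.47 in Hep3B-CR. SLC22A3, an organic cation transporter, rose in the same 3 groups (2.21, 2.33 and 1.79). SLC47A1, the proton-coupled cation exporter MATE1, fell in Huh7-IR (-2.39), Huh7-CR (-0.97) and Hep3B-CR (-1.71). ABCC6 fell in Huh7-IR (-2.31) and Huh7-CR (-2.10). The DMSO comparisons called 1 of these 15 genes in Huh7 (4.83% of all genes) and 0 in Hep3B (1.58%).

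Enzymes of bile acid synthesis and conjugation were tested in 13 of 15 cases. In Huh7-IR 1 rose and 4 fell (median -0.29 against 0.19 over all genes, of which 48.8% were called). In Huh7-CR 1 rose and 3 fell (0.04 against 0.07, 34.5%). In Hep3B-IR 3 rose and 2 fell (-0.25 against 0.06, 27.1%), and in Hep3B-CR 0 rose and 4 fell (-0.31 against 0.11, 32.2%). CYP7A1 and CYP8B1, which encode the rate-limiting enzyme and the sterol 12-alpha-hydroxylase, were the 2 genes not tested and were under 1 CPM in every library. BAAT, which conjugates bile acids to taurine or glycine, rose in Hep3B-IR (2.34 ± 0.66, adjusted p = 0.0175), with 199 and 152 CPM against 68.6 and 16.04 CPM in parental libraries. ACOX2, a peroxisomal oxidase of the bile acid side chain, fell in Huh7-IR (-1.95), Huh7-CR (-1.82) and Hep3B-CR (-0.84), and HSD17B4 of the same pathway fell in Huh7-IR (-1.78) and Huh7-CR (-1.11). AKR1D1, the steroid 5-beta-reductase, fell in Hep3B-IR (-1.20) and Hep3B-CR (-1.47), from a mean of 1.94 CPM in Hep3B parental cells. In Huh7, where parental cells had 0.501 CPM, its changes of -0.45 (IR, adjusted p = 0.0131) and -0.38 (CR, adjusted p = 0.0423) by limma were under the fold limit. CYP7B1, of the alternative pathway, fell in Hep3B-IR (-2.04) and Hep3B-CR (-0.74), and had a mean of 0.159 CPM in Huh7 parental cells.

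Of 20 transcription factors and receptors that are known to control these transporters, 19 were tested, and in Huh7-IR 3 rose and 10 fell (median -0.68 against 0.19 over all genes), where 48.8% of all genes were called. In Huh7-CR 2 rose and 7 fell (-0.47 against 0.07, 34.5% of all genes called), in Hep3B-IR 1 rose and 4 fell (-0.29 against 0.06, 27.1%) and in Hep3B-CR 2 rose and 6 fell (-0.22 against 0.11, 32.2%). In DMSO cells 3 rose and 0 fell in Huh7 (FOXA1, NR1H4 and PPARA, with 4.83% of all genes called), and 0 were called in Hep3B by limma (1.58%). CEBPA, a factor of hepatocyte differentiation, fell in all 4, with -4.42 (IR) and -4.89 (CR) for Huh7 and -1.43 and -1.27 for Hep3B. PROX1 (-3.25, -1.74, -1.02 and -1.64 in that order) and FOXA1 (-2.14, -2.73, -0.78 and -1.38) fell likewise. PPARA, the fatty acid receptor that controls ABCB4 in liver, rose in all 4 (2.29, 1.94, 1.60 and 1.73). It was also called higher in untreated Huh7 DMSO cells against parental cells (1.84, adjusted p = 0.0402), and had 1.26 in Hep3B DMSO (adjusted p = 0.212), so the rise was not limited to resistant cells. NR5A2, the receptor LRH-1, fell in Huh7-IR (-4.40), Huh7-CR (-2.42) and Hep3B-CR (-1.45). NR1H4, the bile acid receptor FXR that activates ABCB11, was named after its values had been seen. It fell in Huh7-IR (-2.02 ± 0.47, adjusted p = 0.00292) and Hep3B-CR (-1.35 ± 0.47, adjusted p = 0.0387) by limma. It had -0.68 in Huh7-CR (adjusted p = 0.273), the group in which ABCB11 was highest. In untreated Huh7 DMSO cells NR1H4 was higher than in parental cells (2.39, adjusted p = 0.0176 by limma). A link between NR1H4 and ABCB11 levels was not tested.

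Proteins that anchor canalicular transporters or carry them to the membrane were tested in 12 cases (13 names, of which 1 was not matched because SLC9A3R1 is an older name of NHERF1). In Huh7-IR 3 rose and 4 fell (median 0.02 against 0.19 over all genes, of which 48.8% were called). In Huh7-CR 2 rose and 4 fell (0.13 against 0.07, 34.5%). In Hep3B-IR 1 rose and 0 fell (0.03 against 0.06, 27.1%), and in Hep3B-CR 3 rose and 3 fell (0.09 against 0.11, 32.2%). PDZK1, a scaffold that binds ABCC2 and other transporters, fell in Huh7-IR (-3.56), Huh7-CR (-3.44) and Hep3B-CR (-2.45). EZR, which links membrane proteins to actin, rose in Huh7-IR (1.00) and Huh7-CR (1.42), as did the motor MYO5B (1.15 and 1.92), which was also called higher in Huh7 DMSO cells (0.84, adjusted p = 0.00728). In DMSO cells 3 of the 12 rose and 0 fell in Huh7 (4.83% of all genes called), and 0 were called in Hep3B by limma (1.58%). USH1C, a scaffold of microvilli, rose in Hep3B-IR (3.15) and Hep3B-CR (3.70) from 0.633 and 0.478 CPM in parental libraries.

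**Figure D4:**
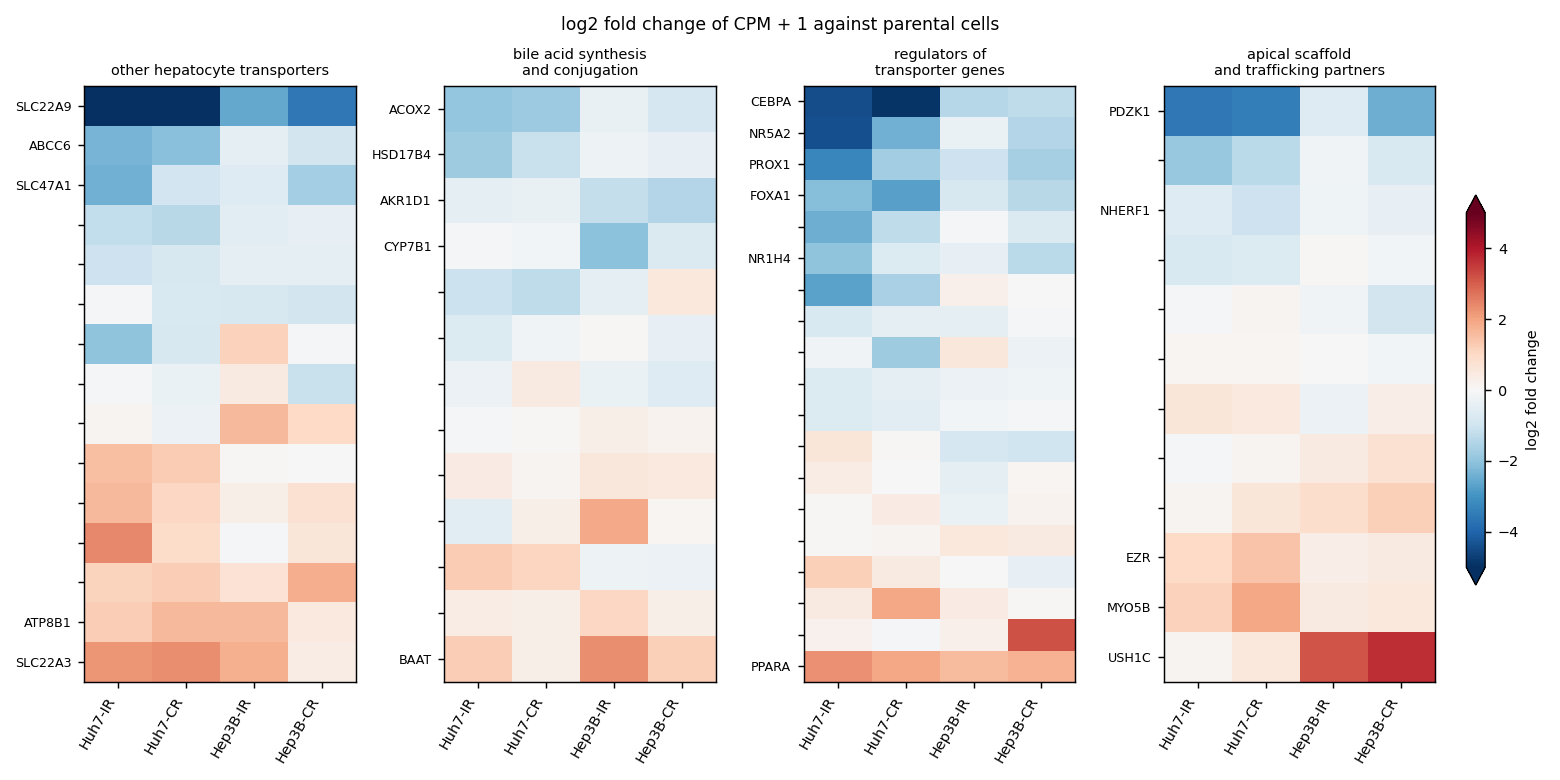
Log2 fold change of CPM + 1 against parental cells (color, red higher and blue lower, cut at the ends of the scale) for the tested genes of the 4 lists (rows, ordered by mean change, with the symbols of those described in the text) in IR and CR cells of Huh7 and then of Hep3B (columns). CEBPA and SLC22A9 are blue and PPARA is red in all 4 columns, while most genes of bile acid synthesis are pale.

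Markers of cell types were read beside these results. Hepatocyte markers (10 genes, all tested) summed to 10526 to 16134 CPM in Huh7 parental and 22626 to 27794 CPM in Huh7 DMSO libraries, and to 91.8 to 409 CPM in Huh7-IR and 1305 to 2695 CPM in Huh7-CR libraries. In Hep3B the sums were 17591 to 22121 CPM in parental, 32359 to 38901 CPM in DMSO, 3406 to 10373 CPM in IR and 1215 to 2138 CPM in CR libraries. Of the 10 genes, 9 fell in IR and 8 in CR cells of Huh7. For Hep3B, 5 fell and 1 rose in IR and 8 fell in CR cells. Over all genes tested, 48.8% were called in IR and 34.5% in CR cells of Huh7. For Hep3B the shares were 27.1% and 32.2%, and they apply to the other markers below too. ABCC3 rose and ABCB1 fell in Huh7 beside these lower sums, and their part in the results was not tested. Biliary markers (7 genes) summed to 269 to 1031 CPM over all libraries, and in each resistant group at most 3 of them were called. Endothelial markers (5 genes) summed to at most 6.42 CPM, with KDR, VWF and STAB2 under 1 CPM in every library. Fibroblast markers (6 genes) summed to 284 to 772 CPM in Huh7 and 23.3 to 87.0 CPM in Hep3B libraries. Of the 5 tested, 4 rose and 1 fell in each resistant Huh7 group, while for Hep3B 1 rose and 1 fell in IR cells and 1 rose and 0 fell in CR cells. COL1A1 rose in all 4 resistant groups (4.21 to 5.69 on the log2 scale) and was the 1 riser in those of Hep3B. Leukocyte markers (5 genes) summed to 10.8 to 113 CPM, with CD3E under 1 CPM throughout. Of the 4 tested, 1 rose and 3 fell in Huh7-IR (median -1.07), 1 rose and 1 fell in Huh7-CR, and 1 rose and 0 fell in each resistant Hep3B group, the riser being the lysosomal gene CD68 in all 4 (1.78 to 3.62). COL1A1 and CD68 were named after their values had been seen.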

How the data were processed

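Single-end reads of poly(A) libraries were mapped by the authors with STAR to hg19, keeping unique hits, and counted with QuasR over exons of RefSeq mRNAs. Whether strand was used in counting is not given in the sources used here. The deposited table holds CPM, the counts of reads per gene divided by the library total by the authors, for 16 libraries. Dividing the CPM by their step returned whole reads for 100% of the values (tolerance 0.05 reads). Since the table holds CPM, log2(CPM + 1) was modelled by limma 3.58.1 (R 4.3.3) with 1 model of all 8 groups, its prior variance following the mean level, and p-values were BH-adjusted over the 15019 genes tested. A fold change on this scale understates the change of low genes. An exact permutation test of 2 against 2 libraries cannot give a p below 0.333, so no such test is given. Groups came from the sample titles, and IR and CR cells of a line share their parental libraries. All per-sample columns were used. The procedure was tested on simulated data with the same dispersion setting for all genes and groups. The wider replicate spread of Huh7-IR and Huh7 DMSO was not simulated, so that test does not cover it. Alternatives were edgeR 4.0.16 and DESeq2 1.42.0 on the recovered reads, other scalings, pseudocounts of 0.25 and 4 CPM, other filters, a GC correction, the replicate block, other call rules, DMSO libraries as reference and each library left out. A library was left out only for the comparisons that contain its group. The other call rules, the unadjusted p and no fold limit, are looser than the main rule, so no call could be lost under them. Positions are from GENCODE on GRCh37 and promoter letters from RefSeq on GRCh38.p14. The members, the gene lists and the tests were chosen with earlier results of these data known. The rule for naming list genes took those called the same way in all 4 resistant comparisons, then those with the largest absolute mean change, up to 5 a list, and the 2 genes most correlated with each tested member over the 16 libraries. A few genes that this rule would name are not reported here.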

Additional observations from a re-analysis of the deposited data

Results flagged for a closer look

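The change of ABCB1 in resistant cells differed between the lines by a test of the difference itself. The change averaged over IR and CR cells, Huh7 minus Hep3B, was -2.72 on the log2 scale (SE 0.49, adjusted p = 0.00135 by limma), with all 4 resistant Huh7 libraries below the 2 parental ones of that line, and 3 of the 4 resistant Hep3B libraries above theirs. The call held under all 26 alternatives, with values from -3.08 to -2.36 and adjusted p from 2.9e-07 to 0.00904.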

How the results depend on the processing

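The calls of ABCC3 in all 4 resistant groups, of ABCB1 in both resistant Huh7 groups and between the lines, and of ABCC1 between the parental lines held under every alternative run. Under the unadjusted p and without the fold limit this outcome was fixed, since these rules are looser than the main one. Over all values of the 7 tested members, 1272 of 1337 kept their direction or stayed uncalled on the same side of the threshold, 49 passed it newly, 14 no longer passed it and 2 reversed, and 37 uncalled values among the first count had the other sign. The reversed ones were ABCB4 in Hep3B-CR, at -0.89 without replicate 2 where all libraries gave 0.20, and SLCO1B3 in Huh7-IR, at -0.11 with DMSO libraries as reference. The 14 lost calls were 6 of ABCG2 in Hep3B-CR (-0.89 to -1.54) and 8 of SLCO1B3 in Huh7-IR (0.45 to 1.29), and the cause was not tested. The fits that leave out a library test a lone sample against the spread of the other groups.

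Counts of called members changed as follows, where edgeR without filter is an alternative chosen after seeing the data. In Hep3B-CR the count of 2 became 1 with the GC correction, without the filter, and with a pseudocount of 4 CPM, 3 with DMSO as reference, and was 1 to 2 with a library left out. In Hep3B-IR the count of 1 became 2 with DESeq2 and with edgeR without filter, 3 with the unadjusted p, 4 with DMSO as reference, and 1 to 2 with a library left out. In Huh7-CR the count of 2 became 3 with DESeq2, DMSO as reference, a model of the line alone, no filter and quantile normalization, and 4 with edgeR without filter. In Huh7-IR the count of 3 became 2 with a model of the line alone, no filter and a pseudocount of 4 CPM, 4 with DESeq2, edgeR with and without filter, DMSO as reference, a pseudocount of 0.25 CPM and the unadjusted p, and 2 to 4 with a library left out. Between parental lines edgeR without filter gave 2, ABCC1 and ABCB11, the latter higher in Huh7 (2.89, adjusted p = 0.0228) on few reads. For the difference between the lines DMSO as reference gave 2, and leaving out a library gave 1 to 2. In Huh7 DMSO the count of 0 became 1 with DESeq2, edgeR without filter and the unadjusted p, and 0 to 1 with a library left out, and in Hep3B DMSO it became 1 with the unadjusted p. Between Huh7-IR and Huh7-CR it became 1 with DESeq2, edgeR, quantile normalization and no filter, 2 with edgeR without filter and the unadjusted p, and 0 to 1 with a library left out. Between Hep3B-IR and Hep3B-CR it became 1 with edgeR without filter, 2 with DESeq2 and the unadjusted p, and 0 to 1 with a library left out.

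Counts of all called genes moved most where few were called. For Hep3B DMSO the 237 genes became 544 with DESeq2, 77 with edgeR, 516 with a model of the line alone and 1210 with the unadjusted p, and 46 to 122 with a library left out. For Huh7 DMSO the 726 genes became 1833 with DESeq2, 1319 with edgeR without filter, 29 with a model of the line alone, 382 without the filter and 2171 with the unadjusted p, and 148 (without DMSO replicate 2) to 3564 (without DMSO replicate 1) with a library left out. Between Huh7-IR and Huh7-CR the 2051 genes became 194 with a model of the line alone and 3148 with the unadjusted p, and 479 to 2878 with a library left out. Between Hep3B-IR and Hep3B-CR the 1764 genes became 2671 with the unadjusted p and 665 to 1151 with a library left out. The share of higher among called genes fell from 60.3% to 46.8% with TMM between the resistant Huh7 groups, from 71.6% to 56.3% with quantile normalization in Huh7 DMSO, and from 67.5% to 46.8% with edgeR in Hep3B DMSO. In Huh7, the correlation of replicate differences between groups was -0.22 to 0.44, with 2 of 6 pairs over 0.1. In Hep3B it was -0.16 to 0.26, with 4 of 6 pairs over 0.1. Whether replicate numbers pair the samples was not tested. With the replicate number as a block, 7338 genes were called in Huh7-IR and 822 in Huh7 DMSO, the counts of called members were as without it, and ABCB1 in Huh7-IR had an adjusted p = 0.000611 by limma. Depth limits SLC10A1, ABCB11 in Hep3B and SLCO1B3, which have few reads.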
